A study of Mus musculus with 27 samples.

Results

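The genes described here encode 8 transcription factors of mesenchymal cells and of epithelial to mesenchymal transition: the zinc finger repressors Snai1 and Snai2, the basic helix-loop-helix factors Twist1, Twist2 and Tcf21, the zinc finger homeodomain factors Zeb1 and Zeb2, and the paired-related homeobox factor Prrx1. They were taken by gene symbol from the table of expression values, where all 8 were found among 54532 genes. RNA was sequenced from tibialis anterior muscle of C57BL/6 mice, 8-week-old males, in which 40% of the muscle had been cut out to produce volumetric muscle loss (VML), an injury in which too much muscle is lost for full repair. The samples were uninjured control muscle (n = 5) and injured muscle explanted 3 days (n = 5), 7 days (n = 6), 14 days (n = 6) and 21 days (n = 5) after injury. No transgene, deletion or drug was part of any group. The available descriptions do not say which samples came from the same animal, and they differ on whether 1 or both legs were injured, so the spread between samples may in part be spread within animals.

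Epithelial to mesenchymal transition is a programme in which cells lose junctions and gain motility and matrix production. Snail, Twist and Zeb family proteins are best known for driving it in embryos and tumours by binding E-box sequences and repressing junction genes. Skeletal muscle holds few epithelial cells, and in this tissue the same factors are better known from fibroblasts, fibro-adipogenic progenitors and other stromal cells, with Zeb2 also known from monocytes and macrophages. Prrx1 and Tcf21 are known from limb and muscle connective tissue lineages.

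The coordinates follow the deposited table, and match the mouse build GRCm38. Snai1 (chr2:167538195-167542814, plus strand) and Twist1 (chr12:33957671-33959829, plus strand) rose after injury, and Twist2 (chr1:91801461-91848028, plus strand) is the close relative of Twist1 that was hardly detected, so the 250 bases before the start of these 3 genes are shown. They come from RefSeq for GRCm38.p6, run 5' to 3' on the plus strand, and have the same start in RefSeq and in the annotation that matches the table. Capitals mark an E-box of the form CACCTG, the type that Snail and Zeb proteins bind.
Snai1, chr2:167537945-167538194: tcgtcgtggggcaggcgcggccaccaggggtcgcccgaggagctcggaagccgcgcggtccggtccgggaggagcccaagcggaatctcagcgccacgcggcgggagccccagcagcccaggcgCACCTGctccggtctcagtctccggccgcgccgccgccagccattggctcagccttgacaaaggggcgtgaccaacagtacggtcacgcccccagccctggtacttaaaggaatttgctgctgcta
Twist1, chr12:33957421-33957670: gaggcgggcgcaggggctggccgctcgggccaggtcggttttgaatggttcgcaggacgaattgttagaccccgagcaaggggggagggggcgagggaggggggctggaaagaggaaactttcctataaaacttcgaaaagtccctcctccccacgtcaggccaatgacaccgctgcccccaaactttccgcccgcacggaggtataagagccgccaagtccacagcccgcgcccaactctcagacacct
Twist2, chr1:91801211-91801460: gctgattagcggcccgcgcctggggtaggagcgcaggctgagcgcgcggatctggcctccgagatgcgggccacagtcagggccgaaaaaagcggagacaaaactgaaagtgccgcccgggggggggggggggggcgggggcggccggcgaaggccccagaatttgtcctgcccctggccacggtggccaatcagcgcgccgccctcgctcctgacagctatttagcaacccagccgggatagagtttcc

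The Snai1 window held 1 match to CACCTG or its reverse complement CAGGTG, starting 126 bases before the gene start, and the Twist1 and Twist2 windows held none, nor any match to the wider E-box CANNTG, which includes CACCTG. Among 32851 mouse promoter windows of the same length, 17.2% held CACCTG or CAGGTG on either strand and 66.2% held CANNTG. The AP-1 motif TGANTCA was in none of these 3 windows and in 6.75% of all. GC content was 70.0% for Snai1, 68.8% for Twist2 and 62.4% for Twist1. These are matches of letters and say nothing of occupancy.

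The other genes lie at chr16:14705852-14709385 on the plus strand (Snai2), chr18:5591860-5775467 on the plus strand (Zeb1), chr2:44983632-45117395 on the minus strand (Zeb2), chr1:163245119-163313710 on the minus strand (Prrx1) and chr10:22817281-22820174 on the minus strand (Tcf21). Libraries did not keep strand, so reads of genes that overlap on opposite strands cannot be told apart. This touches Twist2 most, since 46.53% of its exon bases are shared with the antisense gene Gm29100, which was listed between 0 and 0.119 FPKM. For Zeb2 the share with Zeb2os was 3.27%, and for Zeb1 the share with Gm10125 was 1.93%.

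Expression is given as FPKM, the fragments of a gene divided by its exon length and by a size set for each library, so levels can be compared between genes. The reads assigned to genes, recovered from the FPKM values, ranged from 14376395 to 24436763 (median 17398586). The samples were not cleanly separated by time: 9 of 27 lay nearest to the centre of another group, among them day 3 replicate 5, nearest to day 7, and day 7 replicate 5, nearest to day 3. The calls of the factors at these days are also given without both of these libraries, and those of gene lists where the count moved. The denominators behind the deposited FPKM were 0.747 to 0.819 times a library's own reads in uninjured muscle, 1.14 to 1.48 times at day 3, 0.810 to 1.44 times at day 7, 0.810 to 1.33 times at day 14 and 0.776 to 0.964 times at day 21. Most injured samples were thus scaled down relative to controls, and day 7 replicate 6, day 14 replicate 6 and day 21 replicate 5 lay within the control range. Myofibre marker levels, a check of the tissue label, were high throughout, with a summed level of 83503 to 98974 FPKM for 8 genes in uninjured muscle and 21617 to 63695 FPKM at day 3.

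In uninjured muscle Prrx1 had the highest level of the 8 genes, at 4.64 ± 0.615 FPKM (SD, n = 5), followed by Zeb1 at 3.49 ± 0.402 FPKM and Twist1 at 1.73 ± 0.778 FPKM. The ranges of Prrx1 (3.84 to 5.48 FPKM) and Zeb1 (2.99 to 3.95 FPKM) overlapped. Snai1 (0.756 ± 0.251 FPKM), Snai2 (0.705 ± 0.217 FPKM) and Zeb2 (0.588 ± 0.131 FPKM) came next and lay within each other's spread. Twist2 was at 0.125 ± 0.0496 FPKM, and Tcf21 had reads in 1 of the 5 control libraries. By day 3 the order had changed, with Snai1 highest at 6.54 ± 2.50 FPKM (SD, n = 5), then Prrx1 at 5.01 ± 0.494 FPKM, Twist1 at 3.93 ± 0.586 FPKM and Snai2 at 3.72 ± 1.05 FPKM. The ranges of Snai1 (3.31 to 9.69 FPKM) and Prrx1 (4.57 to 5.77 FPKM) overlapped at day 3.

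**Figure D1:**
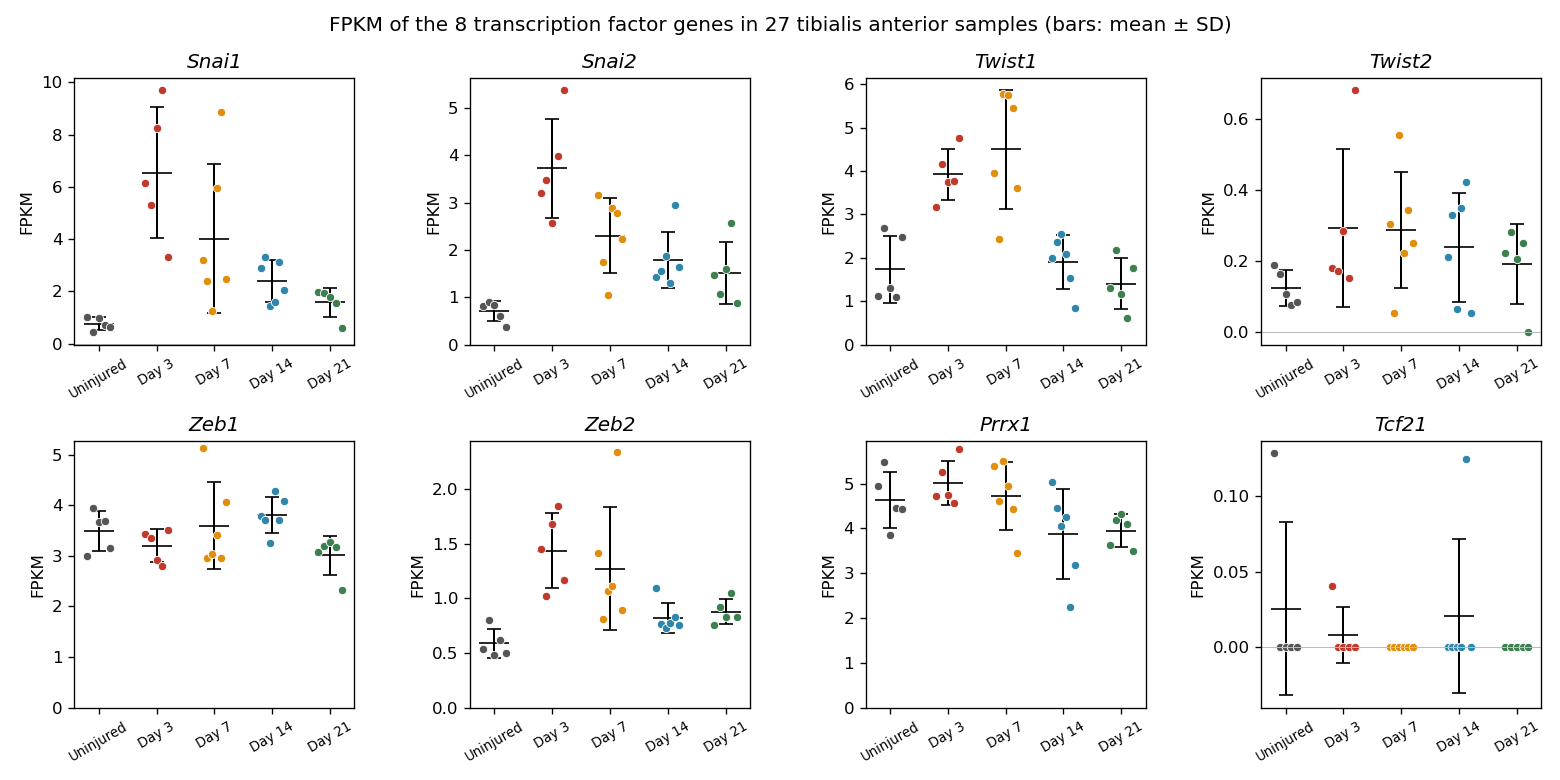
FPKM (vertical axes, linear) of the 8 genes in each of 27 samples by group, with points for samples and bars for the mean ± SD. Snai1 in uninjured muscle stayed at or below 1.02 FPKM and reached 9.69 FPKM at day 3, Zeb1 and Prrx1 overlapped between uninjured muscle and each injured group, and Tcf21 was at 0 in 24 samples.

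Each injured group was compared with uninjured muscle to ask which of these genes had changed at each time. 6 of the 8 genes passed the filter on low values and were tested; Twist2 and Tcf21 did not, and are described by their reads. The changes below are on the log2(FPKM + 1) scale, which understates those of low genes: with 0.1 in place of 1 the day 3 changes were 2.92 for Snai1, 2.25 for Snai2, 1.22 for Twist1 and 1.15 for Zeb2, and the same 4 genes were called at days 3 and 7. At day 3, 4 of the 6 genes were higher and none was lower (limma, adjusted p under 0.05), against 23.4% of 14630 tested genes called higher. At day 7 the same count was 4 of 6, against 15% of all. At day 14, 2 of 6 were higher, against 9.02%, and at day 21 none of the 6 was called in either direction, against 3.43%. From day 3 to day 21 the median log2 changes of the 6 genes were 0.75, 0.71, 0.15 and 0.038, beside medians of 0.012, 0.028, 0.020 and 0.014 for all genes. In whole tissue, more cells of a type and more RNA per cell cannot be told apart, and this holds for every change below. Without day 3 replicate 5 and day 7 replicate 5, the counts at days 3, 7, 14 and 21 were 4, 4, 2 and 0.

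**Figure D2:**
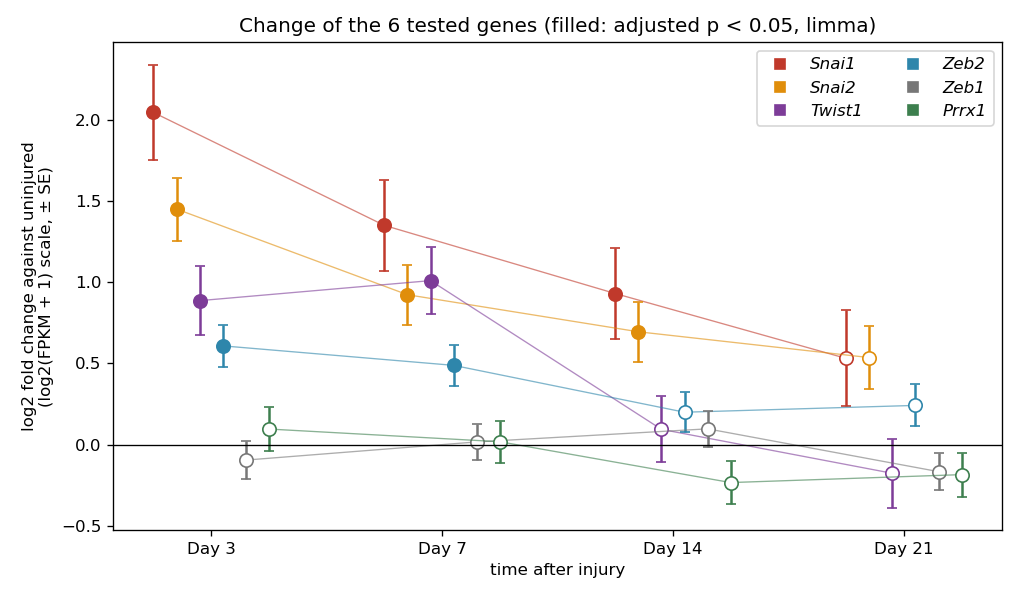
Log2 fold change against uninjured muscle (vertical axis, log2(FPKM + 1) scale, bars ± SE) of the 6 tested genes at 4 times after injury, with filled points where the limma adjusted p was under 0.05. Snai1 and Snai2 were filled at days 3, 7 and 14, Twist1 and Zeb2 at days 3 and 7, and Zeb1 and Prrx1 at no day.

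Snai1, the founding Snail-family repressor of mouse mesoderm formation, rose most. Its levels in the uninjured replicates were 1.02, 0.430, 0.999, 0.702 and 0.632 FPKM, and in the day 3 replicates 6.15, 5.32, 8.25, 9.69 and 3.31 FPKM. Every day 3 sample was above every control, and replicate 5, one of the libraries that stood apart, was the lowest of its group. The log2 fold change at day 3 was 2.05 ± 0.30 (SE, adjusted p = 9.15e-06, limma), and 2.23 without both libraries (adjusted p = 1.33e-07, limma). At day 7 Snai1 ranged from 1.27 to 8.87 FPKM with a median of 2.83 FPKM, and its highest value was in replicate 5. These samples were again all above the controls, with a log2 fold change of 1.35 ± 0.28 (adjusted p = 0.00132, limma), or 1.12 without both libraries (adjusted p = 0.00198, limma).

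At day 14 Snai1 ranged from 1.45 to 3.33 FPKM with a median of 2.46 FPKM, still without overlap with the controls, and the log2 fold change was 0.93 ± 0.28 (adjusted p = 0.0216, limma). This call was lost without control replicate 2 or without day 14 replicate 5, with adjusted p up to 0.0546 (limma), with no filter on low values (adjusted p = 0.0523, limma) and with voom weights (adjusted p = 0.0878, limma). At day 21 the values were 1.97, 1.95, 1.80, 1.56 and 0.608 FPKM. Replicates 1 to 4 lay above all controls and replicate 5 lay among them, and the difference of 0.53 ± 0.30 on the log2 scale did not pass (adjusted p = 0.319, limma; 95% interval -0.076 to 1.14).

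Snai2, the neural crest and stromal Snail protein also called Slug, rose with a smaller size and a tighter spread. Uninjured replicates had 0.817, 0.891, 0.843, 0.603 and 0.372 FPKM, and day 3 replicates 3.20, 3.48, 2.57, 3.97 and 5.37 FPKM. The groups did not overlap, and here replicate 5 of day 3 was the highest of its group, the reverse of its place for Snai1. The log2 fold change was 1.45 ± 0.19 at day 3 (adjusted p = 3.72e-06, limma), 0.92 ± 0.19 at day 7 (adjusted p = 9.95e-04, limma) and 0.70 ± 0.19 at day 14 (adjusted p = 0.0105, limma). Day 7 samples ranged from 1.05 to 3.15 FPKM with a median of 2.50 FPKM, and day 14 samples from 1.30 to 2.94 FPKM with a median of 1.59 FPKM, all above the highest control. At day 21 the replicates had 1.47, 1.08, 1.59, 2.57 and 0.886 FPKM, of which replicate 5 alone fell within the control range. The day 21 log2 fold change of 0.54 ± 0.19 missed the threshold over all genes (adjusted p = 0.118, limma), with a 95% interval for this gene alone of 0.14 to 0.93. Without both libraries that stood apart, Snai2 stayed called, at 1.34 at day 3 (adjusted p = 7.53e-06, limma) and 0.88 at day 7 (adjusted p = 0.00209, limma).

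Twist1, a basic helix-loop-helix factor of cranial and limb mesenchyme, kept its day 3 level through day 7 and was near the control level by day 14. The uninjured replicates had 1.11, 2.68, 1.31, 1.10 and 2.48 FPKM, and the day 3 replicates 3.18, 4.17, 3.75, 3.77 and 4.76 FPKM. All day 3 samples lay above all controls, and the log2 fold change was 0.89 ± 0.21 (adjusted p = 0.00156, limma). Day 7 samples ranged from 2.43 to 5.77 FPKM with a median of 4.70 FPKM, 1 of them within the control range. The day 7 log2 fold change was 1.01 ± 0.20 (adjusted p = 0.00103, limma). Without both libraries the changes were 0.83 at day 3 (adjusted p = 0.00484, limma) and 0.96 at day 7 (adjusted p = 0.00313, limma).

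Twist1 at day 14 ranged from 0.834 to 2.56 FPKM with a median of 2.03 FPKM, inside the control range in 5 samples and below it in 1. The log2 fold change from controls was 0.094 ± 0.20 (adjusted p = 0.776, limma), with a 95% interval of -0.33 to 0.51, and its sign turned under quantile normalization. The day 21 replicates had 1.31, 2.17, 1.17, 0.613 and 1.76 FPKM, and the change was -0.18 ± 0.21 (adjusted p = 0.689, limma; 95% interval -0.61 to 0.26).

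Twist2, also called Dermo1 and known from dermis, did not pass the filter on low values. It had 385 reads over all 27 libraries, 0 to 46 in each, and reached 0.5 FPKM in 2 samples, day 3 replicate 5 (0.681 FPKM) and a day 7 sample (0.555 FPKM). Its means were 0.125 ± 0.0496 FPKM in uninjured muscle (SD, n = 5), 0.295 ± 0.222 FPKM at day 3 (n = 5), 0.289 ± 0.164 FPKM at day 7 (n = 6), 0.239 ± 0.154 FPKM at day 14 (n = 6) and 0.193 ± 0.112 FPKM at day 21 (n = 5). These ranges overlapped between every injured group and the controls. With no filter Twist2 was at 0.19 at day 3 and 0.19 at day 7 on the log2 scale (adjusted p = 0.276 and 0.283, limma). It was called higher at both days with a common sum per sample, at 0.52 and 0.51 (adjusted p = 0.0394 and 0.0401, limma), where the median of all genes was at 0.55 and 0.52. Day 21 replicate 5 had 0 reads, a count that allows up to 3 reads or 0.0847 FPKM (counting error only).

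Zeb2, a factor of neural crest and of monocyte-derived cells, rose at days 3 and 7, and its relative Zeb1 passed the test at no day. Zeb2 in the uninjured replicates was 0.535, 0.801, 0.483, 0.623 and 0.50 FPKM, and in the day 3 replicates 1.46, 1.02, 1.68, 1.85 and 1.17 FPKM. Every day 3 sample was above every control, with a log2 fold change of 0.61 ± 0.13 (adjusted p = 5.43e-04, limma), or 0.65 without both libraries (adjusted p = 3.84e-05, limma). For this low gene the size moved to 1.15 with 0.1 added in place of 1, and to 1.26 with voom weights, called in each. Day 7 samples ranged from 0.809 to 2.34 FPKM with a median of 1.09 FPKM, and the lowest of them was barely above the highest control. The day 7 change was 0.49 ± 0.12 (adjusted p = 0.00526, limma), or 0.37 without both libraries (adjusted p = 0.0115, limma). Day 14 (0.728 to 1.10 FPKM, median 0.768 FPKM) overlapped the controls, with 2 of 6 samples above the highest control. At day 21 (0.752, 0.919, 0.828, 1.05 and 0.831 FPKM) replicate 1 alone lay within the control range, and 4 of 5 samples were above it. The changes at days 14 and 21 were 0.20 ± 0.12 (adjusted p = 0.257, limma) and 0.24 ± 0.13 (adjusted p = 0.303, limma).

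Zeb1 in the uninjured replicates was 2.99, 3.95, 3.66, 3.70 and 3.15 FPKM, and in the day 3 replicates 3.43, 3.35, 2.92, 2.80 and 3.51 FPKM, with wide overlap. The log2 changes were -0.095 at day 3 (95% interval -0.33 to 0.14), 0.017 at day 7 (-0.21 to 0.24), 0.098 at day 14 (-0.13 to 0.32) and -0.17 at day 21 (-0.40 to 0.070), with adjusted p between 0.438 and 0.924 (limma). Prrx1, a homeobox gene of limb mesenchyme, showed a like pattern, with 4.95, 5.48, 3.84, 4.46 and 4.44 FPKM in controls and 4.72, 5.25, 4.75, 4.57 and 5.77 FPKM at day 3. Its changes were 0.096 at day 3 (95% interval -0.18 to 0.38), 0.018 at day 7 (-0.25 to 0.29), -0.23 at day 14 (-0.50 to 0.035) and -0.18 at day 21 (-0.46 to 0.095), with adjusted p between 0.205 and 0.932 (limma). Without both libraries Zeb1 was at -0.12 and 0.056 and Prrx1 at 0.053 and 0.030 at days 3 and 7, with adjusted p between 0.446 and 0.897 (limma).

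The calls for Zeb1 and Prrx1 depended on the scaling of the libraries. With each sample scaled to a common sum, the median of all genes shifted by 0.55 at day 3 and 0.52 at day 7, and Zeb1 was then at 0.61 and 0.66 (adjusted p = 0.0442 and 0.0295, limma), close to that shift. Prrx1 was then at 0.85 ± 0.29 and 0.68 ± 0.28 (SE, adjusted p = 0.0181 and 0.0499965, limma). These values were above that shift, but a difference from the shift was not tested. With the own reads of each library as the denominator, the median shifted by 0.40 and 0.36, with Zeb1 at 0.41 and 0.45 and Prrx1 at 0.64 and 0.48. Prrx1 at day 7 was not called there (adjusted p = 0.0531, limma). Snai1, Snai2, Twist1 and Zeb2 stayed called higher at days 3 and 7 under both scalings, for example Snai1 at day 3 at 3.04 and 2.46. Over all genes, 3417 were higher and 2899 lower at day 3 with the deposited scaling, against 7487 and 317 with a common sum, and 6682 and 617 with own reads. The splits at day 7 were 2189 and 2107 against 6713 and 203 with a common sum, at day 14 1320 and 1649 against 1963 and 107, and at day 21 255 and 247 against 59 and 9.

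Tcf21, a factor of epicardial and visceral mesenchyme, was at the limit of detection. It had 11 reads in all, 4 in uninjured replicate 1 (0.128 FPKM), 2 in day 3 replicate 1 (0.0408 FPKM) and 5 in day 14 replicate 5 (0.124 FPKM). The other 24 libraries had 0 reads, which allows up to 3 reads or 0.0367 to 0.114 FPKM per library, so no difference between groups was detectable at this depth.

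Direct comparisons of days asked how the early rise changed with time. Between day 3 and day 21, 4 of 6 genes were lower, against 16.2% of all tested genes called lower, and the median change of the 6 was -0.64 beside -0.0042 for all. Snai1 fell by 1.51 ± 0.30 (adjusted p = 5.91e-04, limma) and Twist1 fell by 1.06 ± 0.21 (adjusted p = 7.55e-04, limma) on the log2 scale. Snai2 fell by 0.91 ± 0.19 (adjusted p = 0.00120, limma) and Zeb2 fell by 0.37 ± 0.13 (adjusted p = 0.0388, limma). The Zeb2 call was lost in 7 of 27 fits that left out 1 sample (day 3 replicates 1, 3 and 4, and day 21 replicates 1, 2, 3 and 5), with adjusted p up to 0.127 (limma). It was also lost with no filter on low values (adjusted p = 0.0721, limma) and with quantile normalization (-0.25, adjusted p = 0.128, limma). Without both libraries the falls were 1.70 for Snai1, 0.80 for Snai2 and 0.41 for Zeb2, and these and Twist1 were called by limma. These contrasts share the day 3 libraries with the comparison against controls.

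Between day 3 and day 7 none of the 6 genes was called, in a comparison that called 0.0478% of all genes. Snai1 was at -0.70 ± 0.28 (adjusted p = 0.220, limma) and Snai2 at -0.53 ± 0.19 (adjusted p = 0.145, limma). Without both libraries that stood apart Snai1 fell by 1.11 (adjusted p = 0.00246, limma). All-gene calls then went from 0 higher and 7 lower to 517 higher and 1748 lower. Each of these libraries lay nearest to the other of these days, so leaving both out widens this contrast in advance. The Snai1 call without them therefore cannot show a fall. Leaving out day 7 replicate 5 alone, the sample with the highest Snai1 of its day, also gave a call for Snai1, with the same limit. Between day 7 and day 14 Twist1 fell by 0.92 ± 0.19 (adjusted p = 0.0376, limma), 1 of 32 genes called lower (0.219% of all), or 0.86 without both libraries (adjusted p = 0.0887, limma). This call was also lost in 9 of 27 fits that left out 1 sample (day 3 replicate 3, day 7 replicates 3, 4 and 5, and day 14 replicates 1, 3, 4, 5 and 6), where adjusted p reached 0.112 (limma). Between day 14 and day 21 none of the 6 was called, and limma called 0.0% of all genes, with 909 at an unadjusted p under 0.05.

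Within families the balance of the paralogs was compared as the log2 ratio of their levels in each sample (0.1 FPKM added). The scaling of a library has little effect on this ratio where both genes lie well above 0.1 FPKM. Twist2 and Tcf21 did not, so their ratios also move with the scaling. The ratio of Tcf21 to Prrx1 was among the 16 tests. The ratio of Zeb2 to Zeb1 was -2.39 ± 0.195 in uninjured muscle (SD, n = 5) and -1.13 ± 0.455 at day 3 (n = 5), a difference of 1.27 with no overlap (exact permutation p = 0.00794, adjusted p = 0.0423 over 16 tests). At day 7 the difference was 0.91 (exact permutation p = 0.00433, adjusted p = 0.0423), with every sample above every control. At day 14 it was 0.31 (exact permutation p = 0.0390, adjusted p = 0.156). At day 21, where neither gene alone passed the test, the ratio was -1.67 ± 0.224 (SD, n = 5), 0.73 above controls (exact permutation p = 0.00794, adjusted p = 0.0423), ranging from -1.90 to -1.38 against -2.69 to -2.17. Without both libraries the differences were 1.36, 0.68, 0.31 and 0.73, and none passed (exact permutation, adjusted p 0.0635 to 0.125), in a design whose smallest p is larger. Leaving out any 1 sample of uninjured muscle, day 3 or day 21 also lowered the count of ratio tests called from 3 to 0. With 4 against 5 samples the smallest exact permutation p is 0.0159, so this loss was fixed by the sample number. It cannot show whether the ratio depends on 1 sample.

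The ratio of Snai2 to Snai1 did not pass at any day, with differences of -0.66, -0.50, -0.30 and 0.044 from day 3 to day 21 and wide spread (exact permutation, adjusted p between 0.454 and 0.960). At day 3 it ranged from -1.65 to 0.68, with replicate 5 the highest sample. The ratio of Twist2 to Twist1 was 0.53 lower at day 3 and 0.67 lower at day 7 on the log2 scale, and did not pass (exact permutation, adjusted p = 0.454 and 0.263). With 1 FPKM added in place of 0.1 it was called at both days (exact permutation, adjusted p = 0.0277), a setting that pulls low Twist2 levels towards a constant. The ratio of Tcf21 to Prrx1, which are not paralogs, did not pass at any day. Tcf21 had reads in 3 libraries and in none of days 7 and 21. In a library without Tcf21 reads this ratio follows Prrx1 alone, so it says nothing of Tcf21 there.

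**Figure D3:**
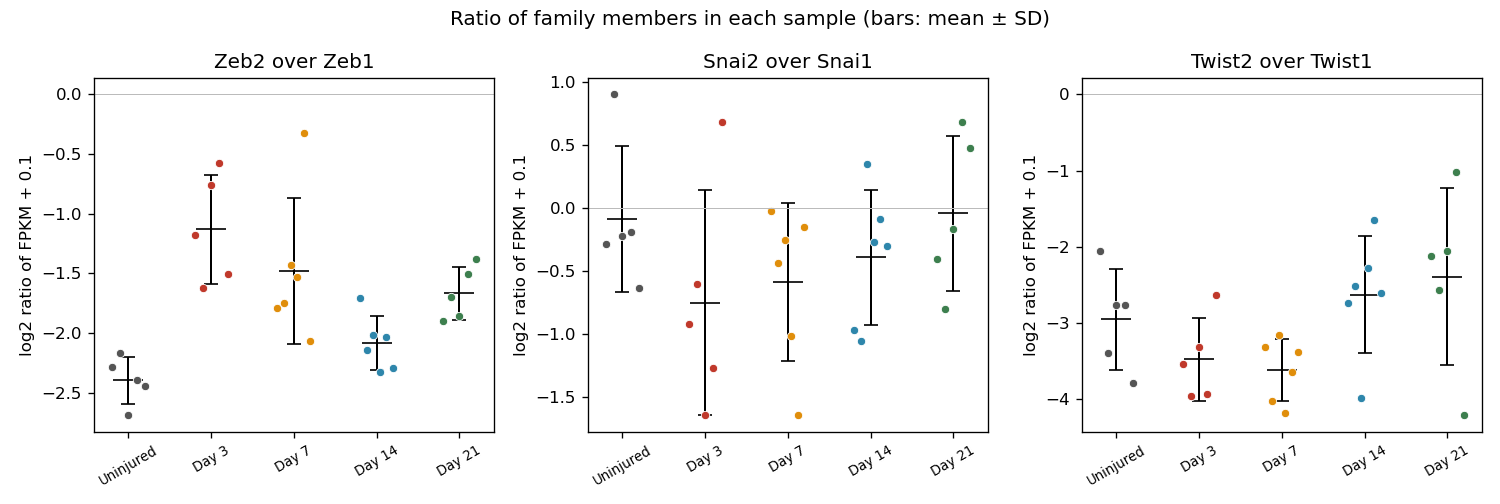
Log2 ratio of paralog levels (vertical axes, FPKM + 0.1) in each of 27 samples by group, with bars for the mean ± SD. Zeb2 over Zeb1 lay between -2.69 and -2.17 in uninjured muscle and above that range in all samples of days 3, 7 and 21, while the other ratios overlapped between groups.

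Markers of invading cells also differed between groups. The summed level of 10 macrophage and monocyte markers was 31.2 to 43.8 FPKM in uninjured muscle, 579 to 3031 FPKM at day 3, 81.3 to 2912 FPKM at day 7, 71.5 to 179 FPKM at day 14 and 57.2 to 102 FPKM at day 21. Of the 10 markers 10, 9, 3 and 0 were higher on days 3, 7, 14 and 21 (10, 10, 7 and 1 without both libraries), and none was at 0 in any whole group. Of all tested genes 23.4%, 15% and 9.02% were called higher on days 3, 7 and 14. At day 3, replicate 5 had the lowest macrophage sum and the lowest Snai1, but the highest Snai2 and Twist1 of its group. At day 7, replicate 5 had the highest macrophage sum (2912 FPKM), Snai1 (8.87 FPKM) and Zeb2 (2.34 FPKM). Day 7 replicate 3, with a sum of 207 FPKM, had the lowest Snai1 (1.27 FPKM) and Snai2 (1.05 FPKM) but the highest Twist1 (5.77 FPKM). Day 7 replicate 6, with the lowest sum of that day (81.3 FPKM), had more Snai1 (2.48 FPKM) and Snai2 (2.22 FPKM) than replicate 3. Zeb2 at day 3 was lowest in replicate 2 (1.02 FPKM), not in replicate 5 (1.17 FPKM). Whether macrophages account for part of the Snai1 and Zeb2 values was not tested.

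**Figure D4:**
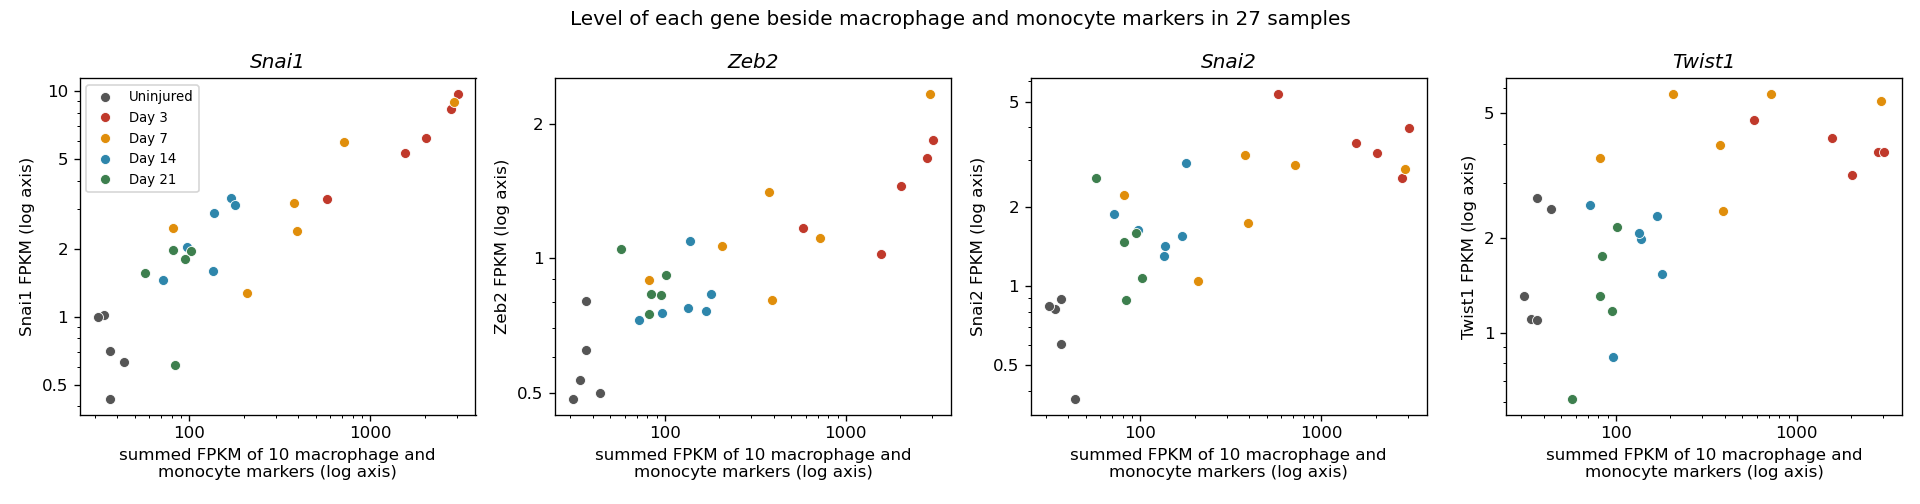
FPKM of Snai1, Zeb2, Snai2 and Twist1 (vertical axes, log) against the summed FPKM of 10 macrophage and monocyte markers (horizontal axes, log) in 27 samples coloured by group. The samples with the highest sums, up to 3031 FPKM, held the highest Snai1 values, up to 9.69 FPKM, while Twist1 reached 5.77 FPKM at a sum of 207 FPKM.

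Marker levels of stromal and muscle cells were compared in the same way. The summed level of 10 markers of fibroblasts and fibro-adipogenic progenitors was 186 to 303 FPKM in controls and 280 to 450 FPKM at day 3. It was 268 to 465 FPKM at day 7, 231 to 398 FPKM at day 14 and 234 to 320 FPKM at day 21, and none of the 10 was at 0 in any whole group. Of the 9 that could be tested, 5, 5, 5 and 0 were higher on days 3, 7, 14 and 21, against 4, 6, 5 and 0 without both libraries and 9, 9, 6 and 0 with a common sum per sample. Among all 14630 tested genes, 3417 were higher and 2899 lower at day 3, and 2189 and 2107 at day 7. At day 14 the all-gene counts were 1320 and 1649, and at day 21 255 and 247. Of 8 adult myofibre markers 6, 3, 1 and 0 were lower on days 3, 7, 14 and 21 (6, 0, 1 and 0 without both libraries). Neutrophil markers rose too, with 3 of 3 tested higher at day 3 and 2 at day 7 (1 without both libraries), and of 3 tested adipocyte markers 3 were called higher at day 7 and none at the other times. Of 6 smooth muscle and pericyte markers 3, 2, 1 and 0 were lower on days 3, 7, 14 and 21 (3, 1, 1 and 0 without both libraries). Of 5 satellite cell markers 2 were higher at day 3 and none was called against controls later. Of 5 endothelial markers 1 was lower on each day. These counts, and those of the fibroblast markers, depended on the scaling. With a common sum per sample, 7487 of all 17174 genes were higher and 317 lower at day 3, and 6713 and 203 at day 7. The all-gene counts were then 1963 and 107 at day 14, and 59 and 9 at day 21. With a common sum per sample 3 smooth muscle and pericyte markers were higher and 1 lower at day 3, and 2 and 0 at day 7. Endothelial markers were then 2 higher and 1 lower at day 3. Myofibre markers were then 3 lower at day 3 and 0 later, and 4 satellite cell markers were higher at day 3. The part of these shifts in the changes of the transcription factors was not tested.

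The genes whose levels were most like each factor differed between the factors. For Snai1 the 5 most alike were Gltp, Vat1, Pld3, Fcer1g (the gamma chain of Fc receptors) and Cd68 (a macrophage lysosomal protein), with r from 0.970 to 0.947 over 27 samples on the log2(FPKM + 1) scale. After the group means were removed, r was 0.918 for Gltp and 0.829 for Cd68. For Zeb2 they included Ccr2, the chemokine receptor of inflammatory monocytes, at r = 0.930 (0.871 within groups), then Arl4c, Ptbp3 and Serp1, at r = 0.919 to 0.915 (0.857, 0.862 and 0.836 within groups). Cd68 and Ccr2 are also in the macrophage marker list above.

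For Twist1 the most alike were Pdgfc, a growth factor of mesenchymal cells (r = 0.874, and 0.579 within groups), then Zfp469, C3, Lrrc15 and Adam12, of which Lrrc15 and Adam12 are known from activated stromal cells. For Snai2 they were Ddc (r = 0.865), Sdc1, Thy1, Mlkl and Mmp14 (r = 0.849), with 0.614 within groups for Ddc and 0.477 for Mmp14. For Zeb1 they were Zfp397 (r = 0.714), Cyyr1, Hipk4, 0610030E20Rik and Rasal2. For Prrx1 they were Igsf3 (r = 0.763), Atf1, Gm14403, Fkbp9 and Arcn1. These values describe the samples, which share libraries, time course and tissue composition, and they were the highest of 14630 genes. Among the factors themselves, Snai1 and Zeb2 had r = 0.829 (0.611 within groups), and Snai1 and Twist1 had r = 0.567 (-0.025 within groups).

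Among other transcription factors of mesenchymal cells, 8 of the 14 tested were higher at day 3, 8 at day 7 (7 without both libraries), 6 on day 14 and 2 on day 21. Beside these, 23.4%, 15% and 9.02% of all genes were called higher at the earlier 3 times, and 255 of 14630 at day 21. The median changes of the 14 were 0.76, 0.59, 0.59 and 0.52, and 1 of them was lower at day 3 (2 without both libraries). Scx, the tendon lineage factor, rose from 4.32 ± 1.66 to 27.1 ± 9.91 FPKM at day 3 (SD, n = 5 and 5), or 2.37 on the log2 scale (adjusted p = 1.06e-04, limma). Of 4 tested tenocyte markers 0 were called against controls at days 3 and 7, with a median change of -0.016 at day 3. With a common sum per sample 1 of them was higher at day 3 and 3 at day 7, beside 7487 and 6713 of all 17174 genes. Prrx2, the closest relative of Prrx1, rose from 0.559 ± 0.329 to 6.11 ± 1.46 FPKM at day 3, a log2 fold change of 2.19 (adjusted p = 9.40e-07, limma), where Prrx1 itself was at 0.096. Tcf15, an endothelial and paraxial mesoderm factor, fell by 1.15 at day 3 (adjusted p = 0.0374, limma). Osr1, a marker of a connective tissue progenitor, and Runx1, known from blood cells and injured muscle, were still higher at day 21, at 0.93 (adjusted p = 0.0195, limma) and 1.68 (adjusted p = 0.0188, limma). With a common sum per sample none of the 14 was called at day 21, and none fell at day 3.

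Twist proteins act as dimers with E proteins, and Id proteins bind the same partners and keep them from DNA. Of 7 such genes 4, 2, 3 and 3 were higher on days 3, 7, 14 and 21, with none lower and median changes of 0.62, 0.34, 0.39 and 0.52. Of all tested genes 23.4%, 15% and 9.02% were called higher on days 3, 7 and 14. On day 21, 3.43% were called in either direction. The E protein gene Tcf3 was at 0.62 at day 3 (adjusted p = 0.00897, limma). The 3 called at day 21 were the inhibitors Id1 (1.36, adjusted p = 0.0427, limma), Id2 (1.43, adjusted p = 0.00424, limma) and Id3 (1.16, adjusted p = 0.0118, limma), at a time when Twist1 was at -0.18. Id2 had 1.74 ± 0.659 FPKM in controls and 7.25 ± 2.86 FPKM at day 3 (SD, n = 5 and 5). With a common sum per sample 2 of the 7 were called at day 21.

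Snail and Zeb proteins recruit corepressors, and the Snail proteins are short-lived. Of 10 corepressor genes 4 were higher and 2 lower at day 3 (5 and 2 without both libraries), 2 and 2 at day 7 (1 and 1 without both libraries), 2 and 1 at day 14, and none at day 21, with median changes of 0.23, 0.16, 0.040 and -0.0071. The histone deacetylase gene Hdac1 was at 0.85 (adjusted p = 4.11e-04, limma) and the LIM protein gene Ajuba at 0.53 (adjusted p = 0.0137, limma) at day 3. Ctbp1, a corepressor of Zeb proteins, was at -0.44 (adjusted p = 0.00822, limma) and Hdac2 at -0.27 (adjusted p = 0.0361, limma). Of 5 tested genes of Snail protein turnover, 1 was higher and 2 lower at day 3, 2 lower at day 7, 1 lower at day 14 and none at day 21, with median changes of -0.21, -0.16, -0.15 and -0.20. Beside both lists, 3417 of all 14630 tested genes were higher and 2899 lower at day 3. The counts were 2189 and 2107 at day 7, and 1320 and 1649 at day 14. The ubiquitin ligase gene Fbxl14 was at 0.42 (adjusted p = 0.0292, limma), Fbxl5 at -0.51 (adjusted p = 9.97e-04, limma) and the kinase gene Gsk3b at -0.50 (adjusted p = 0.00101, limma). With a common sum per sample none of these 15 genes was called lower, and 8 corepressor genes were higher at day 3, beside 7487 of all 17174 genes.

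TGF-beta signalling is a known inducer of Snail, Twist and Zeb genes. Of 12 pathway genes 5 were higher and 3 lower at day 3, 5 and 1 at day 7, 4 and 2 at day 14, and 1 and 0 at day 21, with median changes of 0.40, 0.38, 0.30 and 0.13. Among all 14630 tested genes, 3417 were higher and 2899 lower at day 3, and 2189 and 2107 at day 7. At day 14 the all-gene counts were 1320 and 1649, and at day 21 255 and 247. Without both libraries 2 of the 12 were higher at day 21, 4 were higher and 1 lower at day 7, and 7 were higher and 2 lower at day 3. The ligand gene Tgfb1 rose from 2.95 ± 0.461 to 20.3 ± 8.27 FPKM at day 3 (SD, n = 5 and 5; log2 fold change 2.35, adjusted p = 3.33e-05, limma) and the receptor gene Tgfbr2 from 2.63 ± 0.393 to 7.41 ± 0.941 FPKM (1.21, adjusted p = 1.29e-04, limma). The signal transducer gene Smad3 was at -0.63 (adjusted p = 0.0190, limma) and the ligand gene Tgfb2 at -0.61 (adjusted p = 0.00395, limma). The coreceptor gene Tgfbr3 was the member called at day 21, at 0.74 (adjusted p = 0.0122, limma). With a common sum per sample 8 of the 12 were higher at day 3, none was lower, and none was called at day 21. Of all 17174 genes 7487 were then higher at day 3.

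Of the genes that mark the end states of an epithelial to mesenchymal transition, those of epithelial junctions were mostly too low to test. Of 14 such genes 12 were not tested, among them Cdh1 (E-cadherin) and Epcam, and the summed level of all 14 was 3.08 to 4.49 FPKM in controls and 3.55 to 6.23 FPKM at day 3. The 2 tested, Tjp1 and Crb3, were not called at any day. Of 16 mesenchymal and matrix genes 16, 15, 11 and 4 were higher on days 3, 7, 14 and 21 (16, 13, 12 and 5 without both libraries), with median changes of 2.63, 2.01, 1.37 and 0.74 and none lower. Of all tested genes 23.4%, 15% and 9.02% were called higher on days 3, 7 and 14. On day 21, 255 of all 14630 tested genes were called higher. The summed level of the 16 genes was 199 to 312 FPKM in controls and 1057 to 1644 FPKM at day 3. Postn, the matricellular protein periostin, was at 3.95 at day 3 (adjusted p = 1.27e-06, limma) and Col1a1, a chain of type I collagen, at 3.66 (adjusted p = 2.72e-07, limma). Col1a1 (1.44, adjusted p = 0.0392), Col3a1 (1.61, adjusted p = 0.0195), Vim (1.17, adjusted p = 0.0275) and Mmp14 (1.09, adjusted p = 0.0392) were higher at day 21 by limma. With a common sum per sample none of the 16 was called at day 21.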

How the data were processed

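RNA from 27 tibialis anterior samples was sequenced from poly-A selected, non-directional libraries. Per the submitters' processing notes the authors used HISAT2 2.0.5 and featureCounts 1.5.0-p3, and deposited FPKM values for 54532 genes. How the denominators were set and which genome build was used are not given in the sources used here. Coordinates were matched to GENCODE M21 on GRCm38, where 98.26% of genes had the same coordinates. Reads were recovered from deposited FPKM, gene length and a denominator per sample, and came out whole within 0.05 for 100% of values below 1000 reads.

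Tests were run on log2(FPKM + 1) for the 14630 genes that reached an FPKM of 0.5 in 5 or more samples, in 1 fit over 27 samples with limma 3.58.1 in R 4.3.3 (two-sided, variance trend, Benjamini-Hochberg adjustment over all genes tested in a comparison, threshold 0.05). A fold change on this scale understates that of low genes. Ratios of paralogs, and of Tcf21 to Prrx1, were compared by two-sided exact permutation tests in scipy 1.17.1, adjusted over 16 tests. P-values measure the spread between samples. The procedure was tested on simulated data.

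All 8 factors are named, with the 5 genes most correlated with each tested one, of which 1 gene is not reported here. Of each gene list, the 2 largest rises and the 2 largest falls among genes called at day 3, and genes called at day 21, are named, and Tcf3, Cdh1, Epcam, Tjp1 and Crb3 were added after their values were seen. The genes and lists were chosen with earlier results of these data known. Alternatives covered the pseudocount, the filter, the scaling, blocks, the variance model, weights and samples left out. The use of each library's own reads as denominator, and the counts of lists without day 3 replicate 5 and day 7 replicate 5, were chosen after seeing the data.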

Additional observations from a re-analysis of the deposited data

Results flagged for a closer look

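Of 38 groups of samples examined gene by gene, 8 held a sample far from the rest of its group. The rule is set to flag about 1 in 20 groups of normally distributed values, which low read counts are not. A group with 1 library above 0 and the rest at 0 is always flagged, which fixed the Tcf21 flags in advance. The count of 8 therefore cannot be read against 1 in 20. Twist2 was at 0.681 FPKM (46 reads) in day 3 replicate 5, above the rest of its group, and at 0 FPKM in day 21 replicate 5, below the rest. Snai2 was at 2.94 FPKM in day 14 replicate 5, and Zeb2 at 1.10 FPKM in day 14 replicate 1, both the highest of their groups by a wide gap. Zeb1 was at 2.32 FPKM in day 21 replicate 5, the lowest of its group, and the same library was also the lowest of the day 21 group for Snai1, Snai2 and Prrx1. Tcf21 stood apart in uninjured replicate 1 (0.128 FPKM), day 3 replicate 1 (0.0408 FPKM) and day 14 replicate 5 (0.124 FPKM), which are the libraries with any Tcf21 read, at 4, 2 and 5 reads.

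The changes from controls differed between times for some genes, by the test of the difference itself (limma). Twist1 differed by -0.92 on the log2 scale between day 7 and day 14. Between day 3 and day 21 the differences were -1.51 for Snai1, -1.06 for Twist1, -0.91 for Snai2 and -0.37 for Zeb2.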

How the results depend on the processing

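Of 576 changes of single factors under alternatives other than leaving out 1 sample, 538 kept their direction and their side of the threshold, and 1269 of 1296 did so when 1 sample was left out. Factors called numbered 7 at day 3 and 7 at day 7 with a common sum per sample, under which Twist2 was also tested. Of all 17174 genes 7487 and 6713 were then called higher at these days. At day 14, 1 was called with no filter on low values or with voom weights, where Snai1 was lost. Without both day 3 replicate 5 and day 7 replicate 5, 1 was called between days 3 and 7. Between days 7 and 14 the count fell to 0 with a pseudocount of 0.1, no filter, a common sum, only the 2 groups compared, voom weights, own reads as denominator, or both libraries left out. Of the ratio tests, 5 were called with a pseudocount of 1 and 0 without both libraries. Leaving out 1 sample gave 4 to 4 factors against controls on day 3, 4 to 4 on day 7, 1 to 2 on day 14 and 0 to 0 on day 21. It gave 0 to 1 between days 3 and 7 and between days 7 and 14, 0 to 0 between days 14 and 21, 3 to 4 between days 3 and 21, and 0 to 3 ratio tests. Fewer samples raise the smallest p of an exact test, which lowers the count of ratio tests whatever the values. Leaving out libraries that lie near the other day widens the contrast of days 3 and 7. The causes of the other changes were not tested.

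Directions turned under 18 such alternatives and in 8 fits with 1 sample left out, for changes not called in the main analysis, and Zeb1 at day 3 was called after turning in 2 of them. With quantile normalization these were Twist1 at day 14 (-0.024), Zeb1 at day 7 (-0.061) and from day 3 to 21 (0.031), and Prrx1 at days 3 (-0.0045) and 7 (-0.039). With a common sum they were Zeb1 at day 3 (0.61) and from day 7 to 14 (-0.13), Zeb2 from day 14 to 21 (-0.13), and Prrx1 at day 14 (0.17) and from day 14 to 21 (-0.20). With own reads the same 5 changes were 0.41, -0.042, -0.060, 0.095 and -0.12. With 1 sample left out, Zeb1 at day 7 ranged from -0.070 to 0.057, Prrx1 at day 7 from -0.035 to 0.089, and Prrx1 from day 14 to 21 from -0.063 to 0.12.

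Replicate numbers showed no pairing in the correlation of deviations from the group means. Of 51 pairs with the same number 15 had r above 0.1, with a median of -0.0031 (0.0029 for other pairs). These values cannot tell whether samples with the same number came from 1 animal, since r between same-number pairs ranged from -0.52 to 0.57. With the replicate number as a block, Zeb1 at day 7 was at -0.0076 and Prrx1 from day 14 to 21 at -0.0055, and with the sample letter as a block Zeb1 at day 7 was at -0.0037. Neither block moved a count of called factors by over 1.5 times, and with the letter block 3 in place of 4 were called between days 3 and 21 (Zeb2 lost). At 0 to 46 reads, depth limits Twist2 and Tcf21. It also limits the low values of other factors. Uninjured libraries held 12 to 22 reads of Snai1, 11 to 31 of Snai2 and 22 to 75 of Twist1. Day 21 replicate 5 held 11 reads of Snai1 and 20 of Snai2.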
